A study of Mus musculus with 4 samples.

Results

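Antigen presentation through the major histocompatibility complex (MHC) was examined in mouse bone marrow mesenchymal cells by 10 genes, 5 of the class I pathway and 5 of the class II pathway, chosen by gene symbol from the 24346 rows of the expression table. The class I genes were H2-K1, H2-D1, B2m, Tap1 and Psmb8, and the class II genes were H2-Aa, H2-Ab1, H2-Eb1, Cd74 and Ciita. Every member had a row in the table. Primary mBMSCs from 3-month-old C57BL/6 mice were transfected with siScr, a scramble control siRNA, or with siZBP1, siRNA against ZBP1. ZBP1 is a cytosolic sensor of nucleic acids, and RNA for sequencing was collected 72 h after transfection. The comparison asks what ZBP1 depletion does to the transcriptome of these cells, with 2 samples in each group. All cells, controls included, had received an siRNA with a lipid reagent, and the sources used here do not state whether the samples of a group came from separate mice or cultures, so that p-values measure the spread between these samples. The study used a pair of siRNAs against ZBP1, siZBP1-1 and siZBP1-2. Its sequencing methods name siRNAs in the plural, without stating whether siZBP1-1, siZBP1-2 or both were used. Whether the siZBP1 samples received the same siRNA is not stated either.

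Class I molecules sit on nearly all nucleated cells and show peptides of cytosolic proteins to CD8 T cells. A polymorphic heavy chain (H2-K1 and H2-D1 in C57BL/6 mice) pairs with the invariant light chain B2m, after the proteasome has cut the peptides and the TAP transporter has carried them into the endoplasmic reticulum. Class II molecules show peptides of engulfed proteins to CD4 T cells, are made mainly by macrophages, dendritic cells and B cells, and depend on the coactivator Ciita, whereas its relative Nlrc5 serves class I genes.

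The values were FPKM, fragment counts corrected for the length of the gene's transcript and for the size of the library. They summed to between 477974 and 492166 per sample, 11735 to 11905 genes reached 1 FPKM in a sample, and the numbers of reads were not given, so that the depth behind a value is unknown. Zbp1 itself was 86.0 and 62.0 FPKM in the siScr samples and 11.5 and 11.6 FPKM in the siZBP1 samples, a 6.40-fold lower mean after knockdown. Changes were tested with limma on log2(FPKM + 1) in the 11959 genes with a mean of at least 1 FPKM, and adjusted p-values by Benjamini and Hochberg cover all of these genes. A gene was called where the adjusted p was under 0.05. The median log2 difference of all tested genes was 0.00. With 2 samples against 2, exact permutation of the labels for 1 gene cannot reach a two-sided p below 0.333.

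Of the class I members the heavy chains fell, and of the class II members a pair of chains rose after ZBP1 depletion. The class I heavy chains fell, H2-K1 to a 3.11-fold lower mean and H2-D1 to a 1.92-fold lower mean, while the samples of the groups overlapped for their light chain B2m and for the transporter subunit Tap1. The class II chains H2-Ab1 and H2-Eb1 rose by 1.83-fold and 1.81-fold. Of the 9 members with a test, 2 were called lower and 2 higher, against 14.8% and 13.5% of all genes tested, and the other 5 were not called. The median log2 difference of the 9 was 0.21. Among these 9 the siZBP1 values lay above both siScr values in 5 genes and below both in 2, against 34.7% and 33.7% of all genes tested. Without siZBP1 replicate 1 only 23 genes of the table were called lower and 22 higher, without siZBP1 replicate 2 only 38 and 22, and in neither case was a member or a partner gene named by rule among them. A bulk sample cannot tell fewer cells of a type from less RNA per cell.

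**Figure D1:**
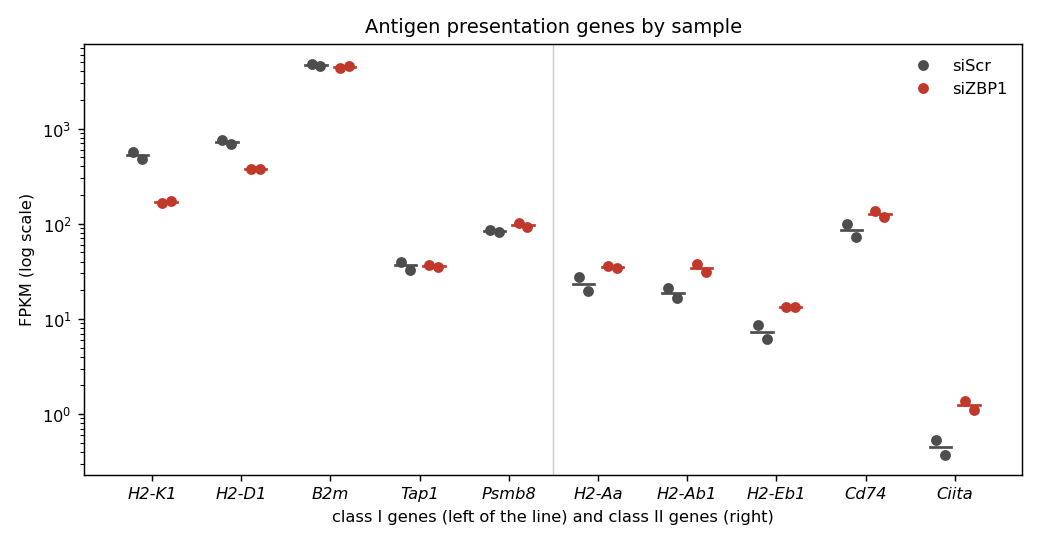
FPKM of the 10 antigen presentation genes on a log axis in each siScr (grey) and siZBP1 (red) sample, as points, with the group mean as a bar (n = 2). The siZBP1 points lie below the siScr points for H2-K1 and H2-D1, overlap them for B2m and Tap1, and lie above them for Psmb8 and the 5 class II genes.

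H2-K1 encodes a classical class I heavy chain and lies on the minus strand of chromosome 17, at 33996017 to 34000347 in GRCm38. Its level was 571 and 484 FPKM in the siScr samples and 164 and 175 FPKM in the siZBP1 samples. The groups did not overlap, and the lower siScr value was well above the higher siZBP1 value. The means were 527 ± 61.4 FPKM (SD, n = 2) and 170 ± 8.06 FPKM (SD, n = 2), and the limma log2 difference was -1.63 (SE 0.092, adjusted p = 0.00277), the 142nd lowest of 11959. H2-D1, the other classical heavy chain, lies further along chromosome 17, from 35262730 to 35267499 on the plus strand. Its level was 757 and 688 FPKM in the siScr samples and 379 and 376 FPKM in the siZBP1 samples. The groups were again separate, with means of 723 ± 48.9 and 377 ± 2.03 FPKM (SD, n = 2). The log2 difference of H2-D1 was -0.93 (SE 0.059, adjusted p = 0.00323). The fall was unequal between the heavy chains, since the ratio of H2-K1 to H2-D1 within a sample was 0.754 and 0.703 with siScr and 0.433 and 0.467 with siZBP1.

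Without siZBP1 replicate 1 the limma adjusted p rose to 0.0748 for H2-K1 and 0.0754 for H2-D1, and without siZBP1 replicate 2 to 0.0639 and 0.0689, at log2 differences between -1.75 and -1.51 for H2-K1 and between -1.004 and -0.866 for H2-D1 over all 4 samples left out in turn. The heavy chain genes also resemble each other and the non-classical class I genes. Of the 50-base windows of the longest coding transcript in GENCODE M21, 8.79% of H2-K1 and 14.3% of H2-D1 occur in the transcript of another gene. How reads from such windows were counted is not stated, and the levels of these genes are uncertain to that extent.

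The 3' UTRs of the heavy chain genes were read for the seed of the siRNAs, because an siRNA can pair with transcripts other than its target through bases 2 to 8 of its antisense strand. The siZBP1-1 and siZBP1-2 targets in Zbp1 lie in the coding part and the 5' UTR, at chr2:173215780-173215798 and chr2:173218901-173218919 of GRCm38 on the minus strand, and capitals mark the stretch that pairs with the seed. The 3' UTR of H2-K1 holds the siZBP1-1 match at chr17:33996259-33996285 and chr17:33996241-33996267 on the minus strand, and that of H2-D1 holds it at chr17:35267074-35267100 on the plus strand. These sequences are shown because the genes that fell among the members carry them, and they were looked for after the values had been seen.
siZBP1-1 target in Zbp1: gggaatgacgaCAGCCAAa
siZBP1-2 target in Zbp1: gggtatttgttTCCGGGAt
H2-K1 site 1: ttcccttccaCAGCCAAccttgctggt
H2-K1 site 2: cttgctggttCAGCCAAacactgaggg
H2-D1 site: cttgctgctcCAGCCAAacactggggg

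The siZBP1-1 match CAGCCAA, read on the strand of the transcript, was found in the 3' UTR of 3 of the 10 members, with 2 copies in H2-K1 and 1 each in H2-D1 and Cd74. The stretches printed for H2-K1 site 2 and the H2-D1 site are alike outside the match too. They are therefore not independent matches when set against the shares below. The copies differ between annotated transcripts of a gene, from 0 to 2 in H2-K1 and from 0 to 1 in H2-D1. Of 10674 tested genes with a 3' UTR of at least 50 bases, 10.6% held at least 1 copy and 1.23% at least 2. Among the 3371 of these with a 3' UTR of 280 to 943 bases, the shares were 4.75% and 0.267%. The siZBP1-2 match TCCGGGA was in the 3' UTR of no member and of 2.06% of the tested genes. Among the partner genes, Psmb10, a proteasome subunit, held 1 copy of it and rose by 0.27 (limma adjusted p = 0.0157). Pdia3, an endoplasmic reticulum oxidoreductase of the class I loading complex, also held 2 copies of CAGCCAA. It was 350 and 361 FPKM in the siScr samples and 205 and 214 FPKM in the siZBP1 samples, which did not overlap, and it fell by 0.76 on the log2 scale (limma adjusted p = 0.00277). Of the 7 tested partner genes of the pathway lists with at least 1 copy, Pdia3 fell, Cd86 rose by 0.33 and 5 were not called, among them Ifngr2 with 3 copies (-0.03), Creb1 with 2 (0.22) and Nfya with 2 (-0.15). The shares of all genes tested were 14.8% lower and 13.5% higher. Cd74, with 1 copy, was higher in both siZBP1 samples. Whether the matches played a part in any of these levels was not tested.

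The promoters of the members were read next, from the RefSeq promoter table of GRCm38.p6, which covers 250 bases before to 50 after each start and holds 7 of the 10 members. H2-Ab1, Cd74 and Ciita have no entry there. MHC genes are known for an upstream module in which the X boxes, bound by the RFX complex and CREB, stand at a fixed distance from the Y box, bound by NF-Y, and class I genes carry an NF-κB site and an interferon response element further upstream. The X2 letters TGACG followed by N20 or N21 and the Y letters ATTGG were in the promoters of H2-K1, H2-D1, B2m and H2-Aa, and in 0.174% of 27025 genes on both strands. The stretches below run from X2 to Y on the strand of the gene, with these letters in capitals. They lie at chr17:34000359-34000388 (minus) for H2-K1, chr17:35262993-35263022 (plus) for H2-D1, chr2:122147609-122147638 (plus) for B2m and chr17:34287867-34287897 (minus) for H2-Aa, and they are shown because the same module heads members that fell, overlapped between the groups or were higher.
H2-K1 X2 to Y: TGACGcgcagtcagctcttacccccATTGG
H2-D1 X2 to Y: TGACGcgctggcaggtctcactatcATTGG
B2m X2 to Y: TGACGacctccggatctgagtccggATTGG
H2-Aa X2 to Y: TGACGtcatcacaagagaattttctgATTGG

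H2-Eb1 and Tap1 held the Y letters without this X2 spacing and Psmb8 held neither, while ATTGG alone was in 41.1% of all promoters. The NF-κB letters GGGGATTCC and the interferon response letters TTTCACTT, searched on both strands, were in 0.296% and 1.91% of promoters. They stood close together in H2-K1 at chr17:34000430-34000458 (minus) and in H2-D1 at chr17:35262923-35262951 (plus), and no other member held either. All 3 elements together were in 2 of the 27025 genes, H2-K1 and H2-D1. Because the letters were chosen late and these promoters are alike, this count does not measure how rare the arrangement is. Among the other class I genes, H2-Q6 and H2-Q7, which had no expression row, held the NF-κB and interferon response letters. H2-M3 held the X2 and Y pair and the interferon response letters, at a log2 difference of 0.16 (limma adjusted p = 0.0775). The stretch from the NF-κB letters to the Y box was identical at 89 of 100 bases between the heavy chain genes. In H2-D1 it lies within a longer exon that GENCODE M21 annotates for the same gene. These letters are shown because the members that fell hold them, they were chosen after the values had been seen, and a match does not show a bound factor.
H2-K1 NF-κB to interferon response element: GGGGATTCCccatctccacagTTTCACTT
H2-D1 NF-κB to interferon response element: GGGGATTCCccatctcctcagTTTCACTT

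B2m, the light chain of every class I molecule, did not follow the heavy chains. It lies on chromosome 2 from 122147686 to 122153083 on the plus strand and was the 5th highest gene of the table by mean FPKM. Its level was 4824 and 4509 FPKM in the siScr samples and 4376 and 4548 FPKM in the siZBP1 samples, which overlapped. The log2 difference was -0.06 (95% interval -0.24 to 0.11, limma adjusted p = 0.520), and it moved to -0.30 (adjusted p = 0.0518) when the libraries were quantile normalized. Within a sample, the ratio of H2-K1 to B2m was 0.118 and 0.107 with siScr and 0.0375 and 0.0385 with siZBP1. The ratio of H2-D1 to B2m was 0.157 and 0.153 with siScr and 0.0865 and 0.0826 with siZBP1, so that heavy chain per light chain transcript was lower in both siZBP1 samples for either gene.

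Tap1, a subunit of the peptide transporter, lies between the heavy chain genes from 34187553 to 34197225 on the plus strand. It was 40.0 and 33.0 FPKM in the siScr samples and 36.7 and 34.7 FPKM in the siZBP1 samples. The siZBP1 values lay between the siScr values, and the log2 difference was -0.03 (95% interval -0.29 to 0.24, limma adjusted p = 0.876). Its partner subunit Tap2 gave 0.04 (95% interval -0.13 to 0.22, adjusted p = 0.668).

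Psmb8 encodes the immunoproteasome subunit that replaces Psmb5 of the standard proteasome, and its gene starts just downstream of Tap1, from 34197721 to 34201454 on the plus strand. It was 86.8 and 81.2 FPKM in the siScr samples and 102.6 and 91.8 FPKM in the siZBP1 samples. The siZBP1 samples were higher without overlap, but the log2 difference of 0.21 (95% interval 0.02 to 0.39) did not pass the test (limma adjusted p = 0.0955), and it was 0.13 without siZBP1 replicate 1. The sister subunits Psmb9 and Psmb10 rose by 0.26 and 0.27 (adjusted p = 0.0211 and 0.0157). Against its standard counterpart Psmb6, Psmb9 was 0.276 and 0.278 with siScr and 0.347 and 0.348 with siZBP1. The ratio of Psmb8 to Psmb5 overlapped between the groups, at 0.861 and 0.882 with siScr and 0.962 and 0.865 with siZBP1, and that of Psmb10 to Psmb7 was 0.399 and 0.381 with siScr and 0.409 and 0.426 with siZBP1. Of 10 standard proteasome genes, 1 rose, Psmb7 by 0.18 (adjusted p = 0.0334, and 0.0879 without a variance trend), and none fell. The other 9 were not called, and the median log2 difference was 0.08. The shares of all genes tested were 13.5% higher and 14.8% lower.

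Of the 11 other genes of class I loading and peptide supply, 4 rose and 2 fell, with a median of 0.16. The shares of all genes tested were 13.5% higher and 14.8% lower. Tapbp, the tapasin that bridges the transporter and the heavy chain, rose by 0.26 (SE 0.042, limma adjusted p = 0.0161). Besides Tapbp and the immunoproteasome subunits the rise included Calr, a chaperone of the loading complex, by 0.24, and besides Pdia3 the fall included Psme2, a proteasome activator subunit, by 0.24. Changes of the members and of their direct partners are plotted side by side.

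**Figure D2:**
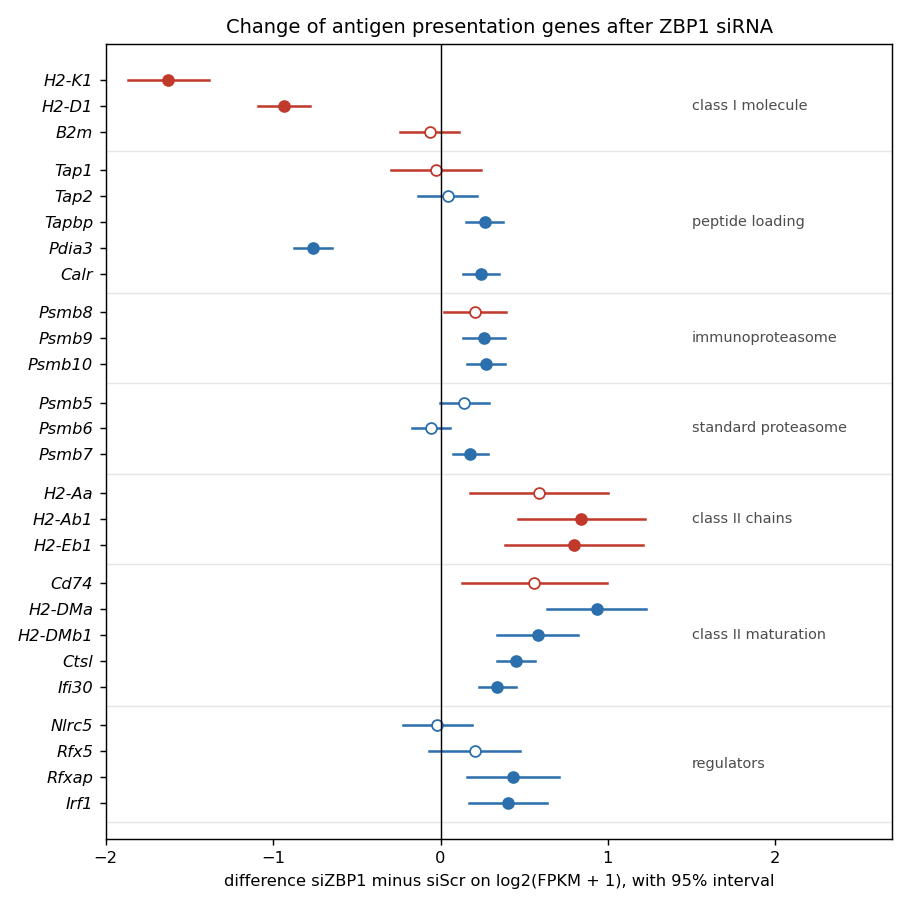
Difference between siZBP1 and siScr on the log2(FPKM + 1) scale with its 95% interval from limma, for members (red) and partner genes (blue), grouped by role. Filled points have an adjusted p under 0.05, and H2-K1 at -1.63 and H2-D1 at -0.93 stand left of their light chain B2m at -0.06 while the class II chains stand right of 0.

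The list of other class I heavy chain genes, non-classical relatives with few alleles apart from the classical H2-L, had rows for 19 of 22 symbols. Of the 12 tested, 3 fell and 2 rose, against 14.8% and 13.5% of all genes tested, with a median log2 difference of -0.22. Without H2-L 2 fell and 2 rose of 11, with a median of -0.21. H2-T9 was 5.72 and 8.05 FPKM with siScr and 3.30 and 2.73 FPKM with siZBP1, without overlap, and fell by 0.96 (limma adjusted p = 0.0214). How much of its sequence is shared with other class I genes was not examined. The row labelled H2-L fell by 0.96 (adjusted p = 0.0335, and 0.110 with a robust variance). GENCODE M21 has no gene of this symbol, and the row may hold reads of the other heavy chain genes. H2-Q4 fell by 0.29 (adjusted p = 0.0476), and 22.6% of its 50-base windows are shared with other genes. The lipid-presenting Cd1d1 and the metabolite-presenting Mr1, which lie outside the complex, rose by 0.62 and 0.58 (adjusted p = 0.0281 and 0.0146), and Cd1d1 missed the threshold when all genes above 0 were tested (0.0513).

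The class II members were all higher in both siZBP1 samples than in either siScr sample, as were 34.7% of all genes tested. Ciita, under the minimum for the test, is not among the genes of that share. H2-Ab1, the β chain of the I-A molecule, lies on chromosome 17 from 34257689 to 34269419 on the plus strand. It was 20.996 and 16.6 FPKM in the siScr samples and 37.6 and 31.2 FPKM in the siZBP1 samples. It rose by 0.84 on the log2 scale (SE 0.143, limma adjusted p = 0.0185), the 153rd highest of 11959. H2-Aa, the α chain of I-A, lies next to it from 34282744 to 34287823 on the minus strand. It was 27.3 and 19.7 FPKM in the siScr samples and 36.1 and 34.6 FPKM in the siZBP1 samples. The groups did not overlap, but the siScr replicates stood 0.45 apart on the log2 scale and the difference of 0.59 (SE 0.157) missed the threshold at an adjusted p of 0.0532.

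H2-Eb1, the β chain of the I-E molecule, lies from 34305867 to 34316674 on the plus strand. It was 8.59 and 6.07 FPKM in the siScr samples and 13.2 and 13.4 FPKM in the siZBP1 samples. Its rise was 0.80 (SE 0.157, limma adjusted p = 0.0259), with siZBP1 replicates nearly equal. C57BL/6 mice lack a working I-E α chain, and the row for H2-Ea-ps, looked up after the values had been seen, was listed at 0 in all 4 samples. Without a siZBP1 replicate the adjusted p of H2-Eb1 was 0.165 or 0.152 and that of H2-Ab1 0.137 or 0.0942, while without siScr replicate 1 or 2 the adjusted p of H2-Ab1 was 0.0511 or 0.0647. For H2-Aa the adjusted p was 0.0299 or 0.0402 without siScr replicate 1 or 2, where the log2 difference was 0.81 or 0.36, and 0.247 or 0.202 without siZBP1 replicate 1 or 2.

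Cd74 encodes the invariant chain, which fills the class II groove until the molecule meets peptide, and lies outside the complex on the plus strand of chromosome 18, at 60803848 to 60812652. It was the most abundant class II member, at 100.2 and 73.1 FPKM in the siScr samples and 135 and 119 FPKM in the siZBP1 samples. The groups were separate, and the log2 difference of 0.56 (95% interval 0.13 to 0.99) was not called (limma adjusted p = 0.0655). Leaving out 1 sample at a time moved it between 0.34 and 0.78, with an adjusted p of 0.0451 without siScr replicate 1 and of 0.110, 0.293 and 0.182 without the other samples. The ratio of H2-Aa to Cd74 overlapped between the groups, at 0.273 and 0.269 with siScr and 0.267 and 0.291 with siZBP1. The ratio of H2-Ab1 to Cd74 was 0.210 and 0.227 with siScr and 0.279 and 0.263 with siZBP1.

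Ciita, the coactivator on which class II transcription depends, lies on chromosome 16 from 10480059 to 10528418 on the plus strand. It was 0.536 and 0.369 FPKM in the siScr samples and 1.38 and 1.10 FPKM in the siZBP1 samples. The siZBP1 mean was 2.75-fold higher and the groups did not overlap, but the mean over all samples was 0.847 FPKM, under the minimum for the test. When all genes above 0 were tested, Ciita rose by 0.63 (SE 0.111, limma adjusted p = 0.0319), in a fit that called 7.61% of genes higher. Its class I counterpart Nlrc5 was 11.98 and 10.7 FPKM with siScr and 10.9 and 11.4 FPKM with siZBP1, with a log2 difference of -0.02 (adjusted p = 0.879).

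Of the 13 other class II genes, 9 were tested, 6 rose and none fell, against 13.5% and 14.8% of all genes tested. The median was 0.33. H2-DMa, which with its partner helps to load peptide onto class II, was 7.21 and 7.64 FPKM in the siScr samples and 16.7 and 13.6 FPKM in the siZBP1 samples. It rose by 0.93 (SE 0.112, limma adjusted p = 0.00897), and its partner chain H2-DMb1 by 0.58 (adjusted p = 0.0156). The lysosomal protease Ctsl rose by 0.45 and the lysosomal thiol reductase Ifi30 by 0.34 (adjusted p = 0.00603 and 0.00918). Among 16 regulators of MHC transcription 3 rose and 1 fell, against 13.5% and 14.8% of all genes tested, with a median of 0.07. Rfxap, a subunit of the RFX complex, rose by 0.43 (adjusted p = 0.0410) and Irf1, an interferon-induced activator, by 0.40 (adjusted p = 0.0327). Ifngr1, a chain of the interferon-γ receptor, rose by 0.25 and Nfyc, an NF-Y subunit, fell by 0.24 (adjusted p = 0.0339 and 0.0458). None of these 4 calls held when the variance trend was left out, at adjusted p-values of 0.05005 to 0.0687. Rfx5, the subunit of that complex with the DNA-binding domain, gave 0.20 (adjusted p = 0.214).

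Markers of other cell types were read beside the class II genes, because mesenchymal cells express class II only weakly. The 14 macrophage markers were abundant in every sample. Summed over the list, they were 6283 and 7212 FPKM in the siScr samples and 10408 and 9760 FPKM in the siZBP1 samples, and without Lyz2, the most abundant of them, 3469 and 3565 FPKM against 4537 and 4358 FPKM. All 14 had a log2 difference above 0, and the median was 0.27. The test called 8 of them higher, against 13.5% of all genes tested. Mrc1, the macrophage mannose receptor, had the largest rise of the list, by 1.25 (limma adjusted p = 0.00789). Ptprc, the CD45 antigen of blood cells, was 76.6 and 76.8 FPKM with siScr and 82.7 and 88.0 FPKM with siZBP1. Its log2 difference of 0.15 was not called (limma adjusted p = 0.0744). The others not called were Adgre1, Fcgr1, Spi1, Mertk and Cd14. The labelled mesenchymal cells thus held transcripts of myeloid cells in all 4 samples, although nonadherent cells had been washed away during isolation.

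The class II chains H2-Aa, H2-Ab1 and H2-Eb1 together made 1.64 and 1.19 FPKM per 100 FPKM of the 13 macrophage markers other than Lyz2 in the siScr samples and 1.91 and 1.82 FPKM in the siZBP1 samples. With Lyz2 included the values were 0.906 and 0.587 FPKM per 100 FPKM with siScr and 0.834 and 0.812 FPKM with siZBP1. The groups were separate without Lyz2 and overlapped with it, a choice looked at after the values had been seen. The part of macrophages in the class II levels was not tested. Of 8 dendritic cell markers 6 stayed under 1 FPKM in all samples and Flt3 was listed at 0. The 8 summed to 5.38 and 6.75 FPKM with siScr and to 8.34 and 8.92 FPKM with siZBP1. Most of this came from Itgax, the only marker of that list tested, which rose by 0.49 (limma adjusted p = 0.0390). Of 5 B cell markers 4 stayed under 1 FPKM, with sums of 2.84 and 2.43 FPKM against 2.54 and 3.27 FPKM. Of 6 T and NK cell markers 5 stayed under 1 FPKM, with Cd3g and Ncr1 at 0. The 6 summed to 4.17 and 4.002 FPKM with siScr and to 5.88 and 5.73 FPKM with siZBP1. Most of this came from Cd4, the only marker of that list tested, which rose by 0.47 (limma adjusted p = 0.0190). The 5 endothelial markers summed to 5.29 and 4.52 FPKM with siScr and to 4.81 and 5.42 FPKM with siZBP1.

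The 12 mesenchymal stromal markers were present in all samples. Their sum was 5621 and 4693 FPKM in the siScr samples and 3230 and 3270 FPKM in the siZBP1 samples. Of the 11 tested, 5 fell and 1 rose, against 14.8% and 13.5% of all genes tested, with a median of -0.46. Without Col1a1, the most abundant of them by its mean over all samples, the sums were 2555 and 2173 FPKM against 2102 and 2079 FPKM. Most of these sums came from Col1a2, at 2092 and 1806 FPKM with siScr and 1829 and 1811 FPKM with siZBP1. Of the 10 tested markers other than Col1a1, 4 fell and 1 rose, with a median of -0.45. Col1a1, the α1 chain of type I collagen, fell by 1.26 (adjusted p = 0.0048), while the α2 chain gene Col1a2 overlapped between the groups (-0.09, limma adjusted p = 0.450). Cxcl12, a chemokine of marrow stroma, fell by 2.81 (adjusted p = 0.0021), whereas Nt5e, an ectonucleotidase used as a mesenchymal surface marker, rose by 2.16 (adjusted p = 0.00954). The part of the cell makeup in the fall of H2-K1 and H2-D1 was not tested.

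**Figure D3:**
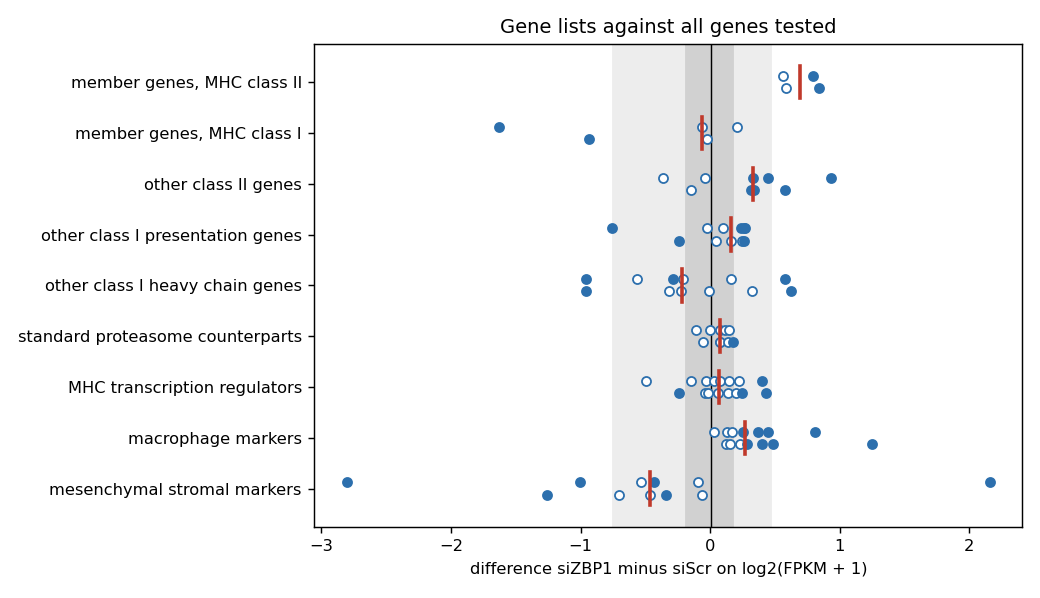
Log2 differences (siZBP1 minus siScr) of the tested genes of each list as points, filled where the adjusted p was under 0.05, with the list's median as a red line. The dark and light bands hold the middle 50% and 90% of all 11959 genes tested, and the median is 0.69 for the class II members, -0.06 for the class I members, 0.27 for macrophage markers and -0.46 for mesenchymal markers.

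Of the members, 7 lie in 1 stretch of chromosome 17, from H2-K1 to H2-D1 at chr17:33996017-35267499 of GRCm38, which GENCODE M21 fills with 138 genes. The table held 96 of these and 51 were tested. Of these 5 were called lower, which is 9.8%, and 10 higher, which is 19.6%, against 14.8% and 13.5% of all genes tested, with a median log2 difference of 0.06. Of the genes that rose, H2-DMa, H2-DMb1, Psmb9, H2-Ab1 and H2-Eb1 belong to antigen presentation, and Rnf5, Ppt2, Skiv2l, Neu1 and Bag6 lie further along the stretch. The other genes that fell were C2, a complement component, by 0.96, Hspa1b, a heat shock gene with a near-identical copy beside it, by 1.12, and the uncharacterized 1110038B12Rik by 0.75, all named after their values had been seen.

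**Figure D4:**
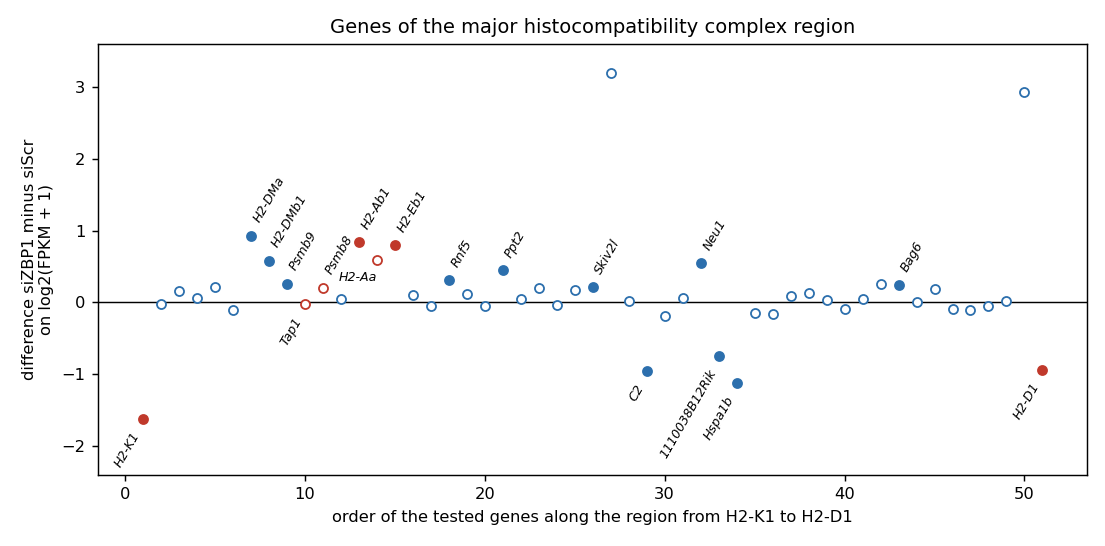
Log2 differences (siZBP1 minus siScr) of the 51 tested genes between H2-K1 and H2-D1, in their order on chromosome 17, with members in red and filled points for an adjusted p under 0.05. H2-K1 at -1.63 and H2-D1 at -0.93 stand at the ends, the class II genes that rose stand together on the left, and the open points above 2 are microRNA genes with intervals that include 0.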

How the data were processed

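RNA of 4 samples of mBMSCs, 2 siScr and 2 siZBP1, was extracted with Trizol and made into TruSeq libraries. The deposited values are FPKM per gene and sample, which the authors obtained by mapping reads to mm10 with Tophat. The study's methods name HTSeq and the submitters' processing notes name Cufflinks for the step from alignments to FPKM. The annotation, any filter, strand handling and read numbers are not given in the sources used here, so that reads of related class I genes may have been split between them.

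Gene symbols chose the members, and 4 rows whose symbol occurs on more than 1 row were left out of the lists. Samples were grouped by their labels, and the deposited group means were not used. The lists and members were chosen with earlier results of these data known. All 10 members, Zbp1, 11 fixed partners and up to 4 called genes with the largest change of each pathway list were named by rule, and markers and genes of the complex beyond it after their values were seen. Genes averaging at least 1 FPKM over the samples entered a limma fit (3.58.1, in R 4.3.3) of log2(FPKM + 1), its variance prior following the mean, and p-values were adjusted by Benjamini and Hochberg over all 11959 genes at 0.05. In the marker lists, 1 gene is not reported here. On this scale the change of low genes is understated. Alternatives were other pseudocounts (0.1 and 0.5), a minimum of 5 FPKM or none, rescaling of libraries, other variance models, a replicate block and leaving out each sample.

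Gene models and 3' UTRs came from GENCODE M21 on GRCm38, using for each gene the transcript with the longest coding part, and promoters came from RefSeq on GRCm38.p6. Both correspond to mm10. Python 3.11.15, numpy 2.4.6, pandas 2.3.3 and matplotlib 3.10.9 were used.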

Additional observations from a re-analysis of the deposited data

How the results depend on the processing

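H2-K1 and H2-D1 kept their direction and their call under all 10 alternatives that used all 4 samples, at log2 differences of -1.63 to -1.58 and -0.94 to -0.85. H2-Ab1 and H2-Eb1 did so as well, at 0.84 to 0.87 and 0.79 to 0.87. A replicate block raised the members called higher from 2 to 5 by adding H2-Aa, Cd74 and Psmb8 (limma adjusted p = 0.0202, 0.0110 and 0.0416), and it ended the calls of Psmb7, Rfxap and Nfyc (0.0578, 0.0547 and 0.0585). Deviations of samples with the same number were not correlated (r = -0.06 over 11959 genes), and nothing in the labels ties them beyond the number. Whether they were prepared as pairs is not stated, and a correlation from 1 deviation per group cannot decide it. H2-Aa was also called with a pseudocount of 0.1, with a minimum of 5 FPKM and after rescaling each library to the same sum (adjusted p = 0.0452, 0.0439 and 0.0411).

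Leaving out 1 sample at a time gave 23 to 1297 genes lower and 22 to 1019 higher, against 1766 and 1618 with all samples, and 0 to 2 members lower and 0 to 3 higher. The counts of 0 members came without either siZBP1 replicate, where the spread rests on the siScr pair alone and the lone sample is assumed to vary like it. The log2 differences of 3 genes near 0 changed sign, Tap1 with a range of -0.16 to 0.11, Nlrc5 of -0.096 to 0.058 and Tap2 of -0.032 to 0.12 over the samples left out, and quantile normalization gave 0.00066 for Tap1 and 0.014 for Nlrc5. The cause was not tested. For the named genes called with all samples, 203 refits with all samples kept the call and 15 lost it (Nfyc, Rfxap, H2-L, Psmb7, Irf1, Ifngr1 and Cd1d1), and 22 refits without 1 sample kept it and 66 lost it. The numbers of reads are not given, so that no counting error could be set beside the low levels of Ciita and H2-Eb1.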
